A study of Mus musculus with 12 samples.

Results

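The bladder transcriptome of mice was compared between circadian time (CT) 16 h and CT12 h, a step that opens the subjective night. CT12 is by convention the onset of activity of a nocturnal rodent kept in darkness. The comparison took the arrays whose titles name these times, 2 at CT16 and 2 at CT12, out of 12 in all, and used every probe that is no control. All groups were whole urinary bladder of female C57BL/6 mice, 10 weeks old, acclimated over 2 weeks to a cycle of 12 h light, 12 h dark, and afterwards released into constant darkness. The other 8 arrays (CT0, CT4, CT8 and CT20, 2 each) entered the fit to estimate the spread. Neither the days spent in darkness nor the number of mice behind an array is given in the labels, so p-values measure the spread between arrays, which may be technical.

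The CT16 arrays lay at positions 1 and 2 of slide 3 and the CT12 arrays at positions 3 and 4 of slide 2. No slide held both times, so time and slide cannot be told apart in this comparison, and this holds for every difference below. CT8 shared the slide of CT12, and CT20 shared the slide of CT16.

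The circadian clock of mammalian cells is a feedback loop of transcription. BMAL1 (encoded by Arntl) and CLOCK bind E-box motifs and activate the Per and Cry repressors, the nuclear receptors Nr1d1 and Nr1d2 (REV-ERB alpha and beta) and output factors such as Dbp. PER and CRY proteins then repress BMAL1 and CLOCK, while REV-ERB proteins repress Arntl and Nfil3 through ROR elements. In many mouse tissues Dbp and Nr1d1 transcripts are abundant in the late rest phase, and Arntl in the active phase.

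Levels are log2 signals minus the 75th percentile of the array, so 0 is that percentile. The percentile was 892 and 887 intensity units on the CT16 arrays, against 914 and 942 on the CT12 arrays. Well above background were 67.5% and 67.0% of spots at CT16, against 70.2% and 67.2% at CT12. Control RNA added to each sample had mean levels of 3.33 and 3.31 at CT16, against 3.39 and 3.24 at CT12. Across genes, which are not independent replicates, r was 0.993 between the CT16 arrays and 0.989 between the CT12 arrays, and 0.985 to 0.992 between an array of CT16 and one of CT12. Defining markers of the bladder were well above background on all 4 arrays: the urothelial gene Upk2 had levels of 6.06 and 6.17 at CT16, against 5.67 and 5.97 at CT12, and the smooth muscle gene Acta2 8.53 and 8.65 at CT16, against 8.62 and 8.49 at CT12.

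No gene of 18389 passed limma's test of CT16 minus CT12 at an adjusted p of 0.05, 0% in either direction. The smallest adjusted p was 0.0636, shared by 10 genes, among them the clock genes Per1, Nr1d1 and Nfil3. With 1 array left out, 0 to 5 genes passed (5 without CT16 replicate 1). At an unadjusted p under 0.05, 1964 genes were higher at CT16 (10.7% of those tested) and 1500 lower (8.16%); without CT16 replicate 2 these were 861 and 822, and without CT12 replicate 2 the higher genes numbered 1303. The levels of the 2 times did not overlap for 5826 genes higher at CT16 (31.7%) and 4411 lower (24%). Among the genes with an unadjusted p under 0.05, the median difference was 1.27-fold for those higher and 1.45-fold for those lower, and differences of at least 2-fold were held by 58 higher and 209 lower genes. The share of these genes that were higher was 56.7%, and 75.9% when arrays were scaled to their median, which moved the median of all genes to 0.11 (log2) from 0.03. An exact permutation test of 2 against 2 arrays cannot go below p = 0.333, so the p-values given for single genes come from fits across all genes, over all 12 arrays; below, "higher" and "lower" give the values of these arrays and are not calls.

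Among the repressor genes of the clock, Per1 and Per3 were lower at CT16. Per1, which encodes a PER repressor (chromosome 11, 69190950 to 69191009, mm7), had levels of 0.11 and 0.35 at CT16, against 1.95 and 2.21 at CT12. Both CT16 arrays lay below both CT12 arrays, by 1.85 ± 0.17 (SE, log2, n = 2 each), 3.61-fold (limma adjusted p = 0.0636). Per3, its paralog, had levels of -4.97 and -5.18 at CT16, against -3.46 and -3.75 at CT12 (2.77-fold lower, adjusted p = 0.125). This dim probe's difference of -1.47 (log2) was -0.60 with normexp background correction and -0.58 in the authors' deposited table. Per2 had levels of -0.14 and -0.28 at CT16, against 0.16 and 0.05 at CT12, lower on both CT16 arrays by a small amount (-0.31 ± 0.24, SE, log2, adjusted p = 0.504), and 1.25-fold lower on a second probe. The differences between the Per genes themselves were not tested. Cry2, a partner repressor, was 1.20-fold lower at CT16 (-0.26, log2, adjusted p = 0.235), and -0.15 with normexp. Cry1 had levels of -2.67 and -2.81 at CT16, against -2.74 and -3.05 at CT12, and these overlapped, while a second probe of it was 1.38-fold higher at CT16.

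The nuclear receptor Nr1d1 (chromosome 11, 98878251 to 98878753, mm7) had levels of -1.68 and -1.65 at CT16, against 0.04 and -0.02 at CT12. It was 3.19-fold lower at CT16 (-1.67 ± 0.16, SE, log2) (adjusted p = 0.0636). Its other probes were 2.57-fold and 1.33-fold lower. Nr1d2 was lower by a smaller amount, with 1.51 and 1.47 at CT16, against 1.99 and 1.91 at CT12 (1.38-fold, adjusted p = 0.116). Rora, an activator that competes with REV-ERB proteins for the same element, overlapped between the times, with a difference of -0.08 (log2).

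Arntl, Nfil3 and Clock were higher at CT16. Arntl (chromosome 7, 109229489 to 109229548, mm7) had levels of -0.78 and -0.60 at CT16, against -1.97 and -2.45 at CT12. It was 2.87-fold higher at CT16 (1.52 ± 0.25, SE, log2, adjusted p = 0.112). Nfil3, which encodes a repressor of the D-box element (chromosome 13, 52008023 to 52008082, mm7), had levels of 1.01 and 1.25 at CT16, against -0.17 and 0.12 at CT12. It was 2.22-fold higher (adjusted p = 0.0636), and a second probe was 1.78-fold higher. Clock had levels of 1.41 and 1.41 at CT16, against 1.04 and 0.88 at CT12 (1.37-fold higher, adjusted p = 0.120), and its 3 other probes were 1.21-fold to 1.47-fold higher. Npas2, a CLOCK paralog on a dim probe, was 1.61-fold higher (0.69, log2, adjusted p = 0.295). Its difference was 0.20 with normexp, 0.17 in the authors' deposited table and 0.35 to 1.03 with 1 of the 4 arrays left out, the lowest without CT16 replicate 2.

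The output genes Ciart, Dbp and Tef were lower at CT16. Ciart, which encodes a repressor of BMAL1 (chromosome 3, 95752460 to 95752519, mm7), had the largest difference of the clock genes, with levels of -2.71 and -2.73 at CT16, against -0.72 and -0.16 at CT12 (4.85-fold lower, -2.28 ± 0.33, SE, log2, adjusted p = 0.0911). Dbp, a D-box activator (chromosome 7, 41886169 to 41886228, mm7), had levels of 4.60 and 3.82 at CT16, against 5.88 and 5.99 at CT12 (3.31-fold lower, adjusted p = 0.112). The CT16 arrays of Dbp lay farther from each other than those of CT12 did. Its relative Tef was 1.62-fold lower (adjusted p = 0.112), and Hlf had 1.53 and 1.15 at CT16, against 1.82 and 1.86 at CT12 (adjusted p = 0.317). Bhlhe41, an E-box repressor, was 1.61-fold lower (-0.69, log2, adjusted p = 0.154), but its difference was -0.28 with normexp and -0.26 in the authors' deposited table. Tsc22d3, a glucocorticoid-induced regulator, was 1.55-fold lower (adjusted p = 0.169). Higher at CT16 were Lonrf3 (1.67-fold, adjusted p = 0.105), Leo1, a transcription elongation factor (1.60-fold, adjusted p = 0.112), and Nampt, which makes a precursor of NAD (1.35-fold, adjusted p = 0.240).

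Of the 19 core clock genes measured of 20 listed, 2 were higher and 7 lower at an unadjusted p under 0.05. Of the 21 clock outputs measured of 22 listed, 5 were higher and 6 lower. The lower genes made up 36.8% of the core clock and 28.6% of the outputs, beside 8.16% of all genes. The higher ones made up 23.8% of the outputs, beside 10.7% of all genes. In the core clock they were 2 of 19, a share close to that 10.7%. Members of these and the other gene lists were chosen with earlier results of these data known. The list shares set beside those of all genes, here and below, are therefore descriptions. Whether a list differs from all genes was not tested. Without CT16 replicate 1 the outputs held 3 higher and 5 lower, without CT12 replicate 2 likewise 3 and 5, and without CT16 replicate 2 they held 5 and 4. The plot of 8 genes of these 2 lists, core clock and clock outputs, shows where the step lies in the day.

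**Figure D1:**
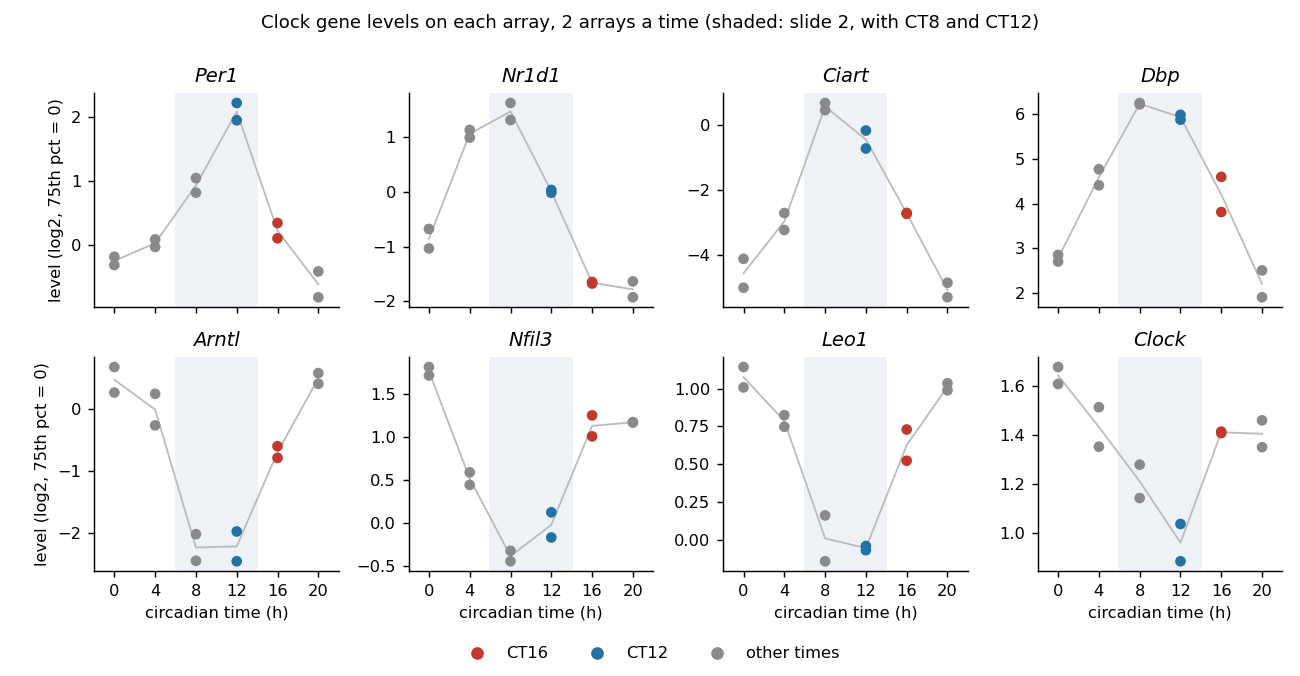
Levels (log2, 75th percentile of the array at 0) of 8 genes of the core clock and clock output lists on each of 12 arrays by circadian time in hours. Points are arrays, the line joins the means of 2, and shading marks slide 2. The CT16 points of Per1, Nr1d1, Ciart and Dbp lie below their CT12 points, and those of Arntl, Nfil3, Leo1 and Clock above.

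An estimate was also read from a wave with a period of 24 h, fitted with slide as a fixed block. No slide held both times, so its CT16 minus CT12 value is predicted from that assumed shape, not observed. Values given below as within slides are this estimate. By that estimate Nr1d1 was lower at CT16 by -1.81 (log2, adjusted p = 0.00609), the single gene of all tested to pass it. Dbp had -1.98 and Ciart -2.19 there, Nfil3 0.97 and Arntl 0.72, in each case with the sign of the direct comparison and without passing (adjusted p = 0.0757, 0.299, 0.299 and 0.505). Per1 had -0.08, Per3 -0.16 and Clock 0.05 there, close to 0. Btrc, of the core clock list, had 0.12 there, against -0.58 in the direct comparison. For Per1 the mean levels at CT8, CT12, CT16 and CT20 were 0.93, 2.08, 0.23 and -0.61.

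The promoter windows of 4 of these genes are shown because they hold the motifs through which the loop is known to act, and because the first 2 genes were lower and the other 2 higher at CT16. The windows are RefSeq sequences on GRCm38.p6, 250 bases before to 50 after the start, read along the gene. Capitals mark CACGTG, the E-box bound by BMAL1 and CLOCK, in Per1 (chr11:69098699-69098998, plus strand) and Ciart (chr3:95882179-95882478, minus strand). They mark TAGGTCA or its reverse complement TGACCTA, the core of the element read by REV-ERB and ROR receptors, in Arntl (chr7:113207261-113207560, plus strand) and Nfil3 (chr13:52980990-52981289, minus strand).
Per1: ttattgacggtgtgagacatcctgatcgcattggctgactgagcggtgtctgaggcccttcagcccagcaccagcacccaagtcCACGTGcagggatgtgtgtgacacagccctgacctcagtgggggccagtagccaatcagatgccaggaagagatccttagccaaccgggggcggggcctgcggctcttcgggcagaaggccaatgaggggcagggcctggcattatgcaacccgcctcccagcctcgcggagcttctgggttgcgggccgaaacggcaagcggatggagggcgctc
Ciart: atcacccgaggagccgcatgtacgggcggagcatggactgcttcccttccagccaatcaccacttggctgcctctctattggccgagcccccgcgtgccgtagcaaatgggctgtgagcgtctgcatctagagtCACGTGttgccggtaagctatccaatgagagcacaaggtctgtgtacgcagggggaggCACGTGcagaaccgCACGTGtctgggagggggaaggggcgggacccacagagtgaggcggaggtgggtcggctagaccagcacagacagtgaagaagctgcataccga
Arntl: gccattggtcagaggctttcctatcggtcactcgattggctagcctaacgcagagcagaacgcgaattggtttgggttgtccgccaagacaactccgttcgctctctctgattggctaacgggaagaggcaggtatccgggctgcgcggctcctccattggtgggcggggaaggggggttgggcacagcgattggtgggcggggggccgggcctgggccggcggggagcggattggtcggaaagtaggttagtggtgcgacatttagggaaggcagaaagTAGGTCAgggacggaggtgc
Nfil3: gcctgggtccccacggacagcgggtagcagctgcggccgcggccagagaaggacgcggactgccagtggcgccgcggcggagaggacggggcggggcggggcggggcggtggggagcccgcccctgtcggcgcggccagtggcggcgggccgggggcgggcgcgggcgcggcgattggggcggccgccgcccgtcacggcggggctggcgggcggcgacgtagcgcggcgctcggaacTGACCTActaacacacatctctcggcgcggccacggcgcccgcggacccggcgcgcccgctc
The Per1 window held 1 CACGTG, 166 bases before the start, and the Ciart window held 3, at 116, 58 and 44 bases before it. The TAGGTCA match lay 30 bases after the start in Arntl and 12 before it in Nfil3.

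CACGTG, which is its own reverse complement, was searched in 32851 windows and found in 7.15%; TAGGTCA was searched on both strands and found in 2.61%. Of the 11997 tested genes with a window, 11% held CACGTG and 2.45% held TAGGTCA. Neither motif contains the other. Among the 13 genes of the clock lists lower at CT16 with an unadjusted p under 0.05, 12 had a window. Of these, 5 held CACGTG (Per1, Tef, Ciart, Bhlhe41 and Coq10b) and 0 held TAGGTCA. Among the 7 higher, 3 held TAGGTCA (Arntl, Nfil3 and Leo1) and 1 held CACGTG (Lonrf3). These genes come from lists chosen with earlier results of these data known. No share was taken over the clock list genes without such a p. Whether the motifs go with the direction of the step was therefore not tested. A match is a description of letters, not of binding.

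The step was also set against the step before it, CT12 minus CT8. No gene passed limma's test of that change of slope (0% of 18389). An unadjusted p below 0.05 was held by 14.2%, with a change below 0 for 1150 (6.25%) and above 0 for 1470 (7.99%). For Per1 there was a change of slope of -3.00 (log2, adjusted p = 0.0832), with CT12 above both CT8 and CT16; the clone-named F730043H23 shared this smallest adjusted p. Nr1d1 had -0.21 (adjusted p = 0.737), since it was also lower at CT12 than at CT8. Klf4, an immediate early factor of epithelia, had -1.54: its levels were 4.91 and 4.74 at CT16, against 5.80 and 5.56 at CT12 (adjusted p = 0.0657 for CT16 minus CT12).

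Among named genes well above background on all 4 arrays with an unadjusted p under 0.01, the 10 of largest difference downward were Ciart and Per1 of the clock lists and Pimreg, Iqgap3, Amotl2, Ccn2, Nek2, Spag5, Ccnb1 and Cdkn3. Pimreg, a regulator of mitosis, had levels of -4.37 and -3.97 at CT16, against -1.77 and -2.40 at CT12 (4.26-fold lower, adjusted p = 0.112). Nek2, a centrosome kinase, was 3.79-fold lower (adjusted p = 0.112), Cdkn3, a phosphatase of cyclin-dependent kinases, 3.34-fold lower (adjusted p = 0.118), and Spag5, a spindle protein, 3.71-fold lower (adjusted p = 0.127). Ccn2, a matricellular growth factor, had levels of 2.90 and 3.30 at CT16, against 4.95 and 5.17 at CT12 (3.89-fold lower, adjusted p = 0.156). Amotl2, an angiomotin family member, was 4.01-fold lower (adjusted p = 0.158). Both are known targets of YAP. Their CT12 arrays lay above all of their CT8 and CT16 arrays: the mean levels of Ccn2 at CT8, CT12, CT16 and CT20 were 1.55, 5.06, 3.10 and 4.08. With normexp the differences were smaller for the dim probes of Pimreg (-1.25, log2, against -2.09), Nek2 (-0.97 against -1.92) and Spag5 (-0.79 against -1.89). That of Iqgap3 was -0.70 with normexp (against -2.02). With the mean of all probes of a name, Cdkn3 had -1.14 (against -1.74), Iqgap3 -0.99 and Spag5 -1.01. Of 26 other settings, 3 gave the other sign for Amotl2 and Ccn2. For Pimreg, Iqgap3, Nek2, Spag5 and Ccnb1 2 did, and for Cdkn3 1 did.

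By the same rule the largest difference upward was that of Slc4a7, a sodium bicarbonate cotransporter, with levels of 6.88 and 6.75 at CT16, against 4.56 and 4.05 at CT12 (5.69-fold higher, adjusted p = 0.135). Ly6k, a membrane-anchored LY6 protein, had levels of 2.22 and 2.81 at CT16, against 0.19 and 1.53 at CT12 (3.16-fold higher, adjusted p = 0.147). Its difference was 0.99 to 2.33 (log2) when 1 array was left out, the lower value without CT12 replicate 1. Spsb4, an adaptor of a ubiquitin ligase, was 2.55-fold higher (adjusted p = 0.0933), Adamts4, a protease of matrix proteoglycans, 2.41-fold (adjusted p = 0.141), and the ubiquitin ligase gene Rnf125 2.23-fold (adjusted p = 0.104), with 2.26-fold on a second probe. For Myo1e, a class I myosin, the probe used was 2.35-fold higher, and its other probes were not, at -0.17 and -0.23 (log2); in the authors' deposited table it had -0.21. With normexp the differences of Spsb4 and Adamts4 were 0.60 and 0.55 (log2), against 1.35 and 1.27.

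**Figure D2:**
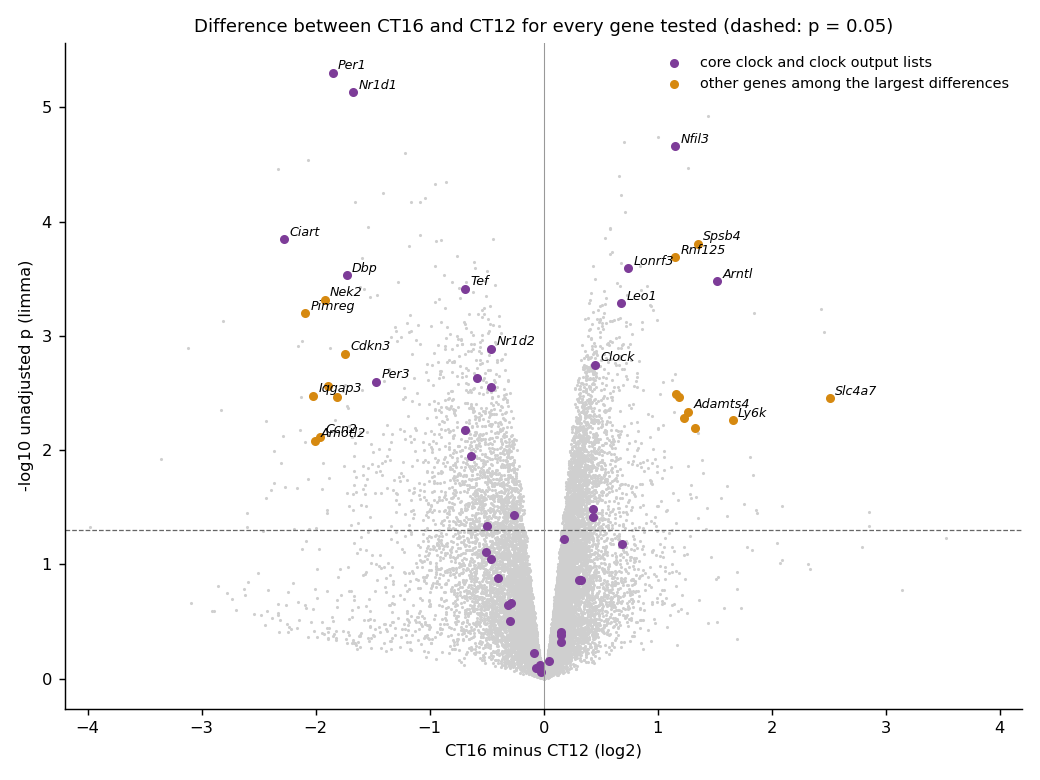
Difference between CT16 and CT12 (log2, horizontal axis) against -log10 of the unadjusted limma p (vertical axis) for 18389 genes; coloured points are clock list genes and the other genes of largest difference. Per1 and Nr1d1 lie highest, on the side lower at CT16; no gene passed after adjustment, and the dashed line marks the unadjusted threshold.

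Several transcripts of mitosis were lower at CT16. Of 29 measured cell cycle and replication genes, 0 were higher and 9 lower at an unadjusted p under 0.05 (0% and 31.0%, beside 10.7% and 8.16% of all genes), with a median difference of -0.40 (log2) beside 0.03 for all genes. Cyclin B1 (Ccnb1) had levels of -5.04 and -5.11 at CT16, against -3.08 and -3.45 at CT12 (3.52-fold lower, adjusted p = 0.134), and its 2 other probes were 3.37-fold and 3.62-fold lower. Cyclin A2 (Ccna2) had levels of -2.52 and -2.56 at CT16, against -0.68 and -1.30 at CT12 (adjusted p = 0.154). The DNA topoisomerase Top2a had -5.23 and -5.15 at CT16, against -3.48 and -3.68 at CT12, and the mitotic kinase gene Cdk1 had -3.25 and -3.51 at CT16, against -1.94 and -2.11 at CT12. With normexp the difference of Ccnb1 was -0.82 (log2, against -1.81) and that of Top2a -0.66 (against -1.61). The replication genes Mcm2 to Mcm7, Pcna and Tyms were not among the 9. The wave within slides gave the other sign, with a median over the list of 0.48 (log2). Ccnb1 stood at -3.98, -3.26, -5.08 and -4.50 at CT8, CT12, CT16 and CT20. Without CT12 replicate 1 there were 4 lower genes, and without CT16 replicate 1 there were 5.

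Genes of fibroblasts and matrix were lower at CT16, in 11 of 33 measured at an unadjusted p under 0.05 (33.3%, beside 8.16% of all genes), with 1 higher (Adamts4) and a median of -0.42. The collagen VI chain Col6a1 had levels of 2.60 and 2.00 at CT16, against 3.19 and 3.10 at CT12 (adjusted p = 0.140). The proteoglycan Bgn had levels of 0.78 and 0.56 at CT16, against 1.80 and 1.19 at CT12 (adjusted p = 0.140), and the fibrillar collagen Col3a1 had 6.53 and 6.24 at CT16, against 7.13 and 6.91 at CT12 (adjusted p = 0.183). Adamts1, a matrix protease, was lower by 0.85 ± 0.18 (SE, log2, adjusted p = 0.120). The arrays of the times did not overlap for 21 lower genes and 1 higher (63.6% and 3.03%, beside 24% and 31.7% of all genes). In bulk tissue, fewer cells of a type and less RNA per cell cannot be told apart. The median within slides was 0.38, of the other sign, and without CT12 replicate 1 or CT16 replicate 2 the lower genes numbered 5.

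Cytosolic heat shock genes were higher, in 9 of 20 measured (45.0%, beside 10.7% of all genes), with 1 lower, Dnajb1. Hsph1, a chaperone of the HSP110 family, had levels of 4.09 and 4.21 at CT16, against 3.56 and 3.20 at CT12 (0.77 ± 0.19, SE, log2, adjusted p = 0.140). Hsp90aa1, the inducible HSP90 gene, had levels of 5.74 and 5.91 at CT16, against 5.53 and 5.32 at CT12 (adjusted p = 0.171). The arrays did not overlap for 15 higher genes and 2 lower (75% and 10%, beside 31.7% and 24% of all genes). The list median was 0.21, and 0.08 with quantile normalisation, 0.29 with median scaling and 0.01 within slides. Without CT16 replicate 2 there were 2 higher genes, without CT12 replicate 2 there were 3 and without CT12 replicate 1 there were 5. Folding genes of the endoplasmic reticulum had 5 higher of 21 (23.8%) and 1 lower, Atf4; Canx, a lectin chaperone, had levels of 5.03 and 5.18 at CT16, against 4.64 and 4.70 at CT12 (adjusted p = 0.126). The higher genes there numbered 1 without CT16 replicate 2 and 3 without CT12 replicate 2.

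**Figure D3:**
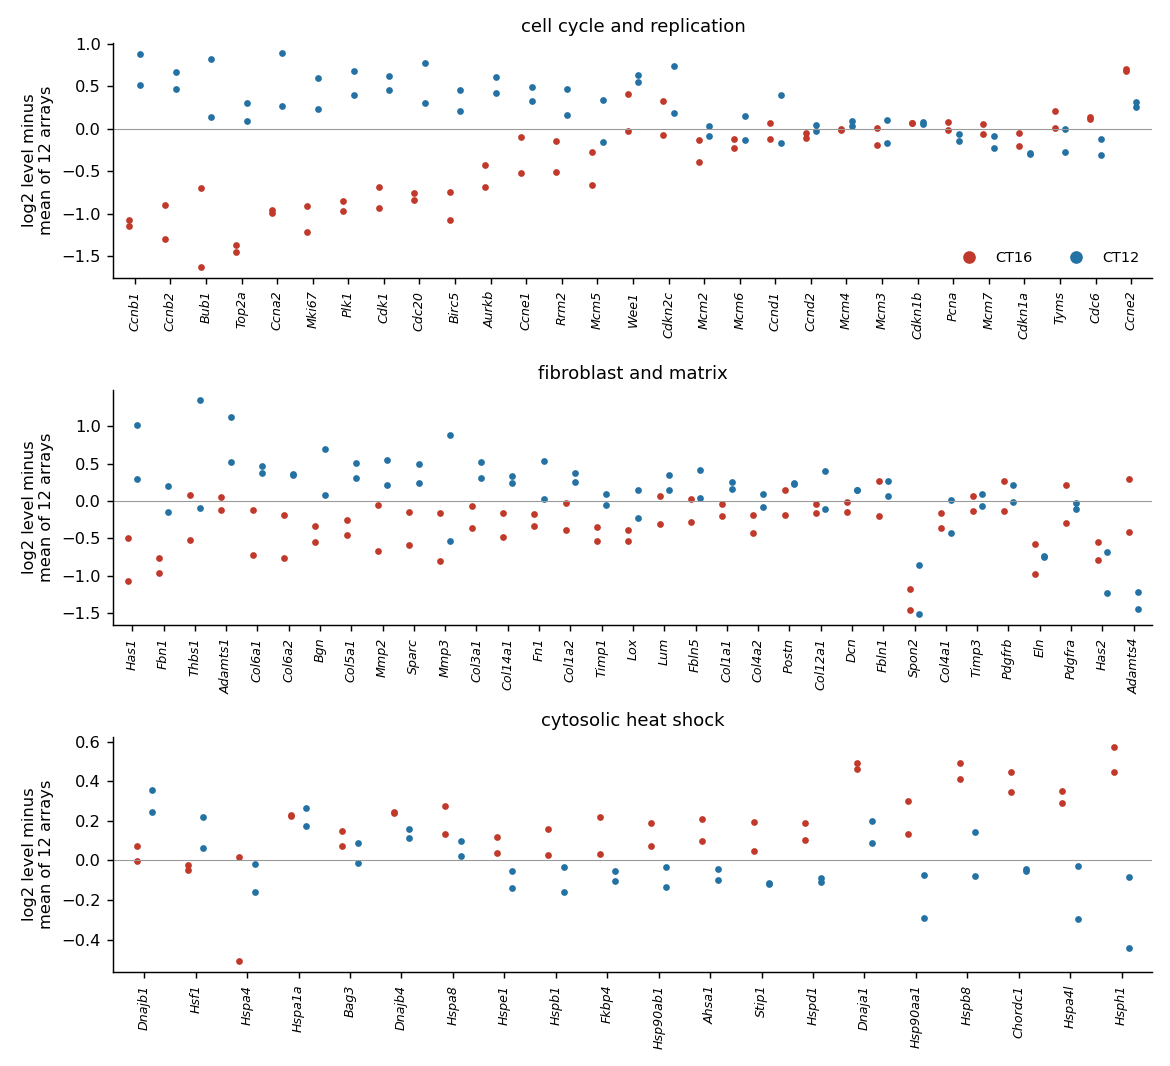
Levels of each member of 3 gene lists on the CT16 and CT12 arrays, as log2 minus the gene's mean over 12 arrays; genes run from the lowest to the highest difference. In the cell cycle panel the CT16 points of Ccnb1 to Cdk1 lie below the CT12 points, and in the heat shock panel most CT16 points lie above.

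Urothelial genes were higher in 7 of 28 measured (25%, beside 10.7% of all genes), and lower in 0. The arrays did not overlap for 14 higher genes and 2 lower (50% and 7.14%, beside 31.7% and 24% of all genes). Differences below 0 were held by 5 of the 28 genes, the lowest at -1.26 (log2). Lypd3, a surface protein of stratified epithelia, had levels of 4.94 and 5.01 at CT16, against 4.30 and 4.29 at CT12 (0.68 ± 0.09, SE, log2, adjusted p = 0.0657). Trp63, the master regulator of basal cells, had levels of 3.47 and 4.00 at CT16, against 3.05 and 3.28 at CT12 (adjusted p = 0.221), and the surface keratin Krt20 had 4.94 and 5.24 at CT16, against 4.38 and 4.90 at CT12 (adjusted p = 0.244). The uroplakins Upk1a, Upk1b and Upk3a had differences of 0.27, 0.26 and 0.42 (log2) and adjusted p of 0.386 to 0.480. The count was 1 without CT16 replicate 2 or without CT12 replicate 1, and 11 without CT12 replicate 2. The list median was 0.25, and -0.08 within slides.

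Sterol and fatty acid synthesis genes were higher in 7 of 26 measured (26.9%, beside 10.7% of all genes), and lower in 0. Srebf2, the master factor of sterol synthesis, had levels of 4.65 and 5.02 at CT16, against 4.34 and 4.33 at CT12 (adjusted p = 0.186). Acly, which makes cytosolic acetyl-CoA, had 1.75 and 1.98 at CT16, against 1.15 and 1.37 at CT12 (adjusted p = 0.191). Fdps, an isoprenoid enzyme, had 3.03 and 3.31 at CT16, against 2.41 and 2.88 at CT12 (adjusted p = 0.183). With the mean of all probes of a name the differences of Srebf2 and Fdps were 0.29 and 0.23 (log2), against 0.50 and 0.53. None of the 26 had an unadjusted p under 0.05 without CT16 replicate 2 or without CT12 replicate 1, while 10 did without CT16 replicate 1, and the within-slide median was -0.15.

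Among water and ion transporters, 5 of 27 were higher and 1 lower (18.5% and 3.70%, beside 10.7% and 8.16% of all genes). Aqp3, a water and glycerol channel of the urothelium, had levels of 7.60 and 7.78 at CT16, against 7.07 and 7.19 at CT12 (0.56 ± 0.12, SE, log2, adjusted p = 0.120). Aqp11, an intracellular aquaporin, was higher by 0.52 (log2, adjusted p = 0.112). The list median had the other sign, -0.12. The higher genes numbered 2 without CT16 replicate 2 and 3 without either CT12 array. Among connexins and pannexins 3 of 14 were higher (Panx1, Gjb6 and Gja4) and 2 lower (21.4% and 14.3%, beside 10.7% and 8.16% of all genes). Their median was 0.03 (log2), as for all genes, -0.01 to 0.14 with 1 of the 4 arrays left out, and -0.03 within slides. Gja1 encodes the main gap junction protein of bladder muscle. It had levels of -0.67 and -0.84 at CT16, against -0.87 and -0.58 at CT12, and these overlapped (-0.03, log2, adjusted p = 0.950).

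Receptors and sensors of the bladder wall showed single genes in both directions. Edn1, which encodes the constrictor peptide endothelin 1, had -1.68 and -1.97 at CT16, against -2.77 and -2.61 at CT12 (0.86 ± 0.16, SE, log2, adjusted p = 0.112). The autonomic receptor list had 2 higher and 4 lower of 25 (8.00% and 16.0%, beside 10.7% and 8.16% of all genes); without CT16 replicate 2, or without CT12 replicate 1, 1 was higher and 2 were lower. Of 18 stretch and purinergic genes 2 were higher and 5 lower (11.1% and 27.8%, beside 10.7% and 8.16% of all genes). Their median was -0.09 (log2), -0.13 to -0.06 with 1 of the 4 arrays left out, and 0.03 within slides. P2ry6, a receptor of uridine nucleotides, was lower by 0.51 ± 0.08 (SE, log2, adjusted p = 0.112). Trpv4, a stretch-sensitive channel, had 3.93 and 4.28 at CT16, against 3.502 and 3.595 at CT12 (adjusted p = 0.187). Smooth muscle contraction genes had 1 higher and 1 lower of 24 (4.17% each); 3 were higher without CT12 replicate 1 and 0 in each fit without another of the 4 arrays.

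Endothelial genes were higher in 4 of 18 (22.2%, beside 10.7% of all genes) and lower in 0; the VEGF receptor Flt1 had levels of 2.81 and 2.58 at CT16, against 2.30 and 2.24 at CT12 (adjusted p = 0.128). Without CT16 replicate 1 there were 2. Respiratory chain genes were higher on both CT16 arrays than on both CT12 arrays in 24 of 34 (70.6%), and cytosolic ribosomal protein genes in 25 of 31 (80.6%, beside 31.7% higher and 24% lower of all genes), with 0 lower, but by small amounts, medians of 0.11 and 0.12 (log2). These medians were -0.01 and 0.03 with quantile normalisation and 0.19 and 0.20 with median scaling, and within slides they were -0.06 and -0.02. At an unadjusted p under 0.05 they held 4 and 3 higher genes (11.8% and 9.68%), close to the 10.7% of all genes; they held 1 and 0 without CT16 replicate 2, 2 and 1 without CT12 replicate 2, and 3 and 1 without CT12 replicate 1.

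**Figure D4:**
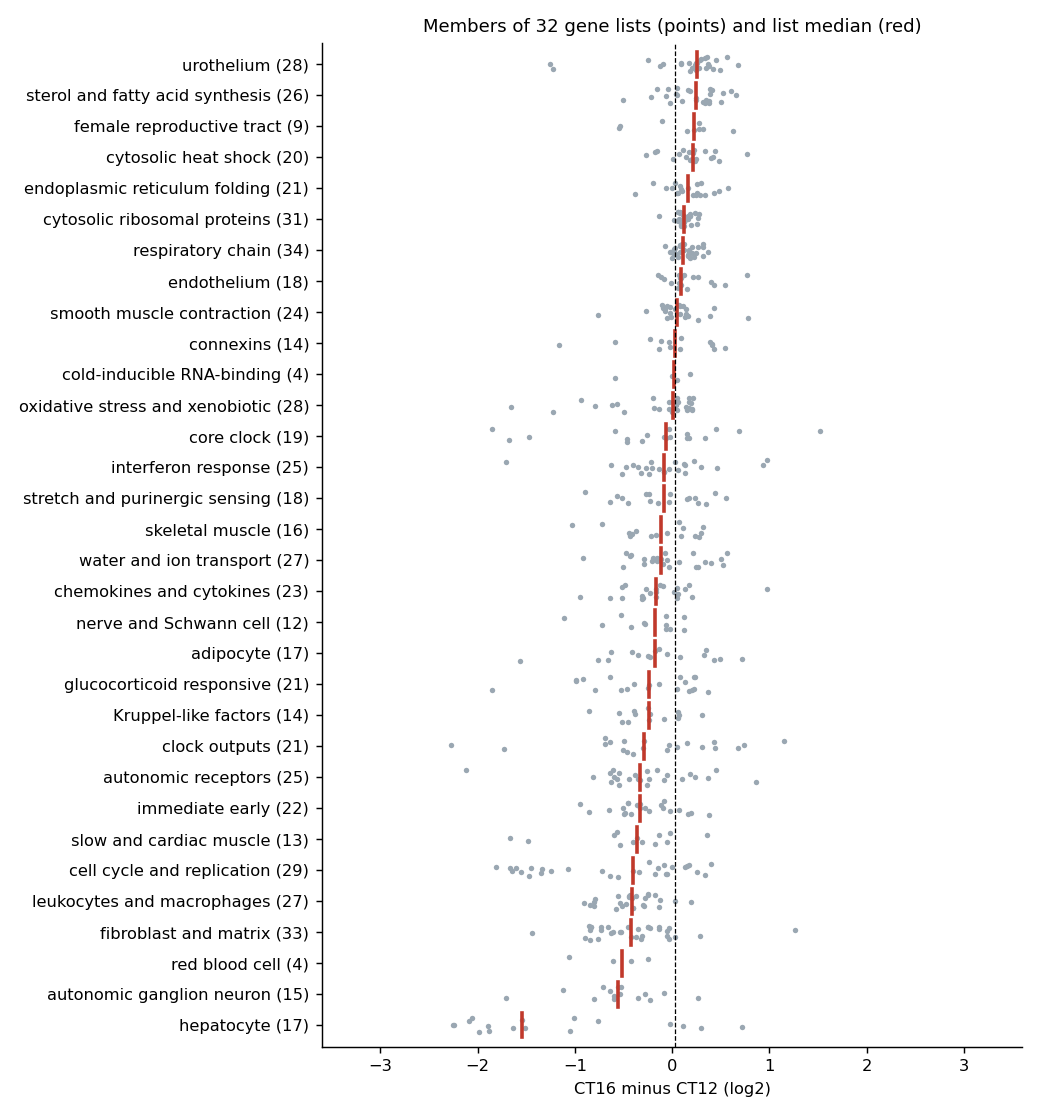
Difference between CT16 and CT12 (log2) of each measured member (grey points) of 32 gene lists, with the list median in red and the median of all genes as a dashed line; the number measured follows each list name. Medians run from -1.54 for the hepatocyte list to 0.25 for the urothelium list.

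Leukocyte and macrophage genes were lower in 8 of 27 (29.6%, beside 8.16% of all genes), higher in 0, and CT12 replicate 2 stood high in them. Cd68, a lysosomal protein of macrophages, had levels of -0.23 and -0.56 at CT16, against 0.14 and 0.66 at CT12 (adjusted p = 0.156), and Csf1r, the macrophage growth factor receptor, had 0.46 and 0.15 at CT16, against 0.82 and 1.38 at CT12 (adjusted p = 0.179). The mean level of the list was -0.95 and -1.03 at CT16, against -0.92 and -0.23 at CT12, and CT12 replicate 2 was the highest of the 4. Without that array 1 gene was lower and the median difference was -0.18; without CT12 replicate 1 there were 17 and -0.72. Without CT16 replicate 1 there were 5, and without CT16 replicate 2 there were 2. The median within slides was 0.15, of the other sign to the -0.42 of the direct comparison.

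The same array held the highest levels of liver and fat transcripts among these 4. The hepatocyte list, with 17 genes measured and 16 of them well above background on all 4 arrays, had mean levels of -2.22 and -0.996 at CT16, against -1.77 and 1.003 at CT12. Its median difference was -1.54 with both CT12 arrays, and 0.12 without CT12 replicate 2; for 0 of the 17 genes did the groups stand apart. The adipocyte list had mean levels of 2.74 and 2.63 at CT16, against 2.40 and 3.30 at CT12. For skeletal muscle they were -0.43 and -0.34 at CT16, against -0.06 and -0.40 at CT12. Of the other tissue lists, nerve and Schwann cell genes were lower in 3 of 12 (25%, beside 8.16% of all genes) and higher in 0. Female reproductive tract genes were higher in 3 of 9 (33.3%, beside 10.7% of all genes) and lower in 0. These 3 were Hoxd13, Wfdc2 and Hoxa13, and whether their RNA came from other tissue was not tested. The nerve count was 0 without CT12 replicate 1 and 1 without CT16 replicate 2, and the reproductive tract count was 0 without CT16 replicate 2 or without CT12 replicate 2. At an unadjusted p under 0.05, slow and cardiac muscle (13 genes) and autonomic ganglion neuron (15 genes) held 1 higher gene each and 0 lower. Red blood cell (4 genes) held none in either direction. The medians of these lists lay below 0, at -0.36, -0.56 and -0.52 (log2), and at -0.13, -0.17 and -0.36 with normexp. Their arrays did not overlap for 7, 7 and 3 lower genes (53.8%, 46.7% and 75%, beside 24% of all genes). Those higher without overlap numbered 1, 1 and 0 (7.69%, 6.67% and 0%, beside 31.7%). The part of these transcripts in the differences above was not tested, apart from the counts without single arrays.

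Glucocorticoid-responsive genes were lower in 7 of 21 (33.3%, beside 8.16% of all genes), higher in 0. Besides Per1 and Tsc22d3, the kinase gene Sgk1 had levels of 1.503 and 1.641 at CT16, against 2.24 and 2.48 at CT12 (adjusted p = 0.140), and the transcription factor Cebpd 3.95 and 4.24 at CT16, against 4.75 and 5.27 at CT12 (adjusted p = 0.155). The difference of Sgk1 was -0.79 (log2), and -0.32 with the mean of all its probes. The list median was -0.24 (log2), and 0.06 within slides, of the other sign. Without CT12 replicate 2 there were 3 lower genes and a median of 0.07, against -0.24 with it. Kruppel-like factors had 5 lower of 14 (35.7%) and 0 higher, with a median of -0.24 (log2), and of -0.003 within slides. Klf9, a hormone-responsive member, had 1.85 and 1.70 at CT16, against 2.00 and 2.34 at CT12 (adjusted p = 0.187). Without CT12 replicate 1 there were 3. Immediate early genes had 2 lower of 22 (9.09%), Klf4 and Myc, close to the 8.16% of all genes. Their arrays did not overlap for 9 lower genes and 1 higher (40.9% and 4.55%, beside 24% and 31.7% of all genes). The list median was -0.33 (log2), and 0.33 within slides. It was -0.08 without CT16 replicate 1 and -0.54 without CT16 replicate 2. Interferon response genes had 1 higher and 6 lower of 25 (4.00% and 24%, beside 10.7% and 8.16% of all genes). They had 4 higher and 2 lower without CT16 replicate 1, 1 and 4 without CT16 replicate 2, 1 and 8 without CT12 replicate 1, and 1 and 1 without CT12 replicate 2.

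Tiparp, a target of the aryl hydrocarbon receptor, had levels of 1.12 and 0.91 at CT16, against 2.98 and 2.36 at CT12 (-1.65 ± 0.21, SE, log2, adjusted p = 0.0657). Cyp1b1, another target of that receptor, had levels of -0.16 and -0.46 at CT16, against 1.24 and 0.59 at CT12 (-1.23 ± 0.30, SE, log2, adjusted p = 0.135). They were 2 of the 3 lower genes among 28 of the oxidative stress and xenobiotic list (10.7%, near the 8.16% of all genes), with 0 higher; without CT12 replicate 1, 6 were lower, and without CT12 replicate 2, 6 were higher. Cirbp, a cold-inducible RNA-binding protein, had 3.51 and 3.44 at CT16, against 4.00 and 4.12 at CT12 (adjusted p = 0.199), while its relative Rbm3 had 4.75 and 4.71 at CT16, against 4.59 and 4.87 at CT12.

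**Figure D5:**
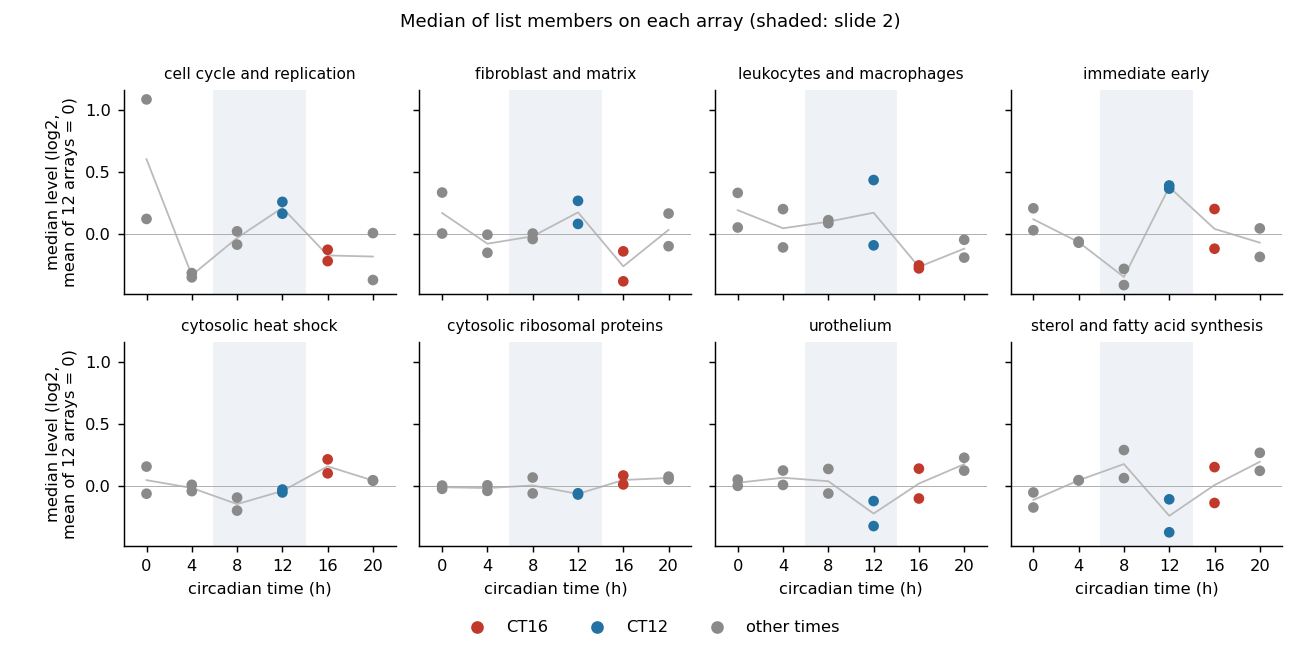
Median of the members of 8 gene lists on each of 12 arrays by circadian time (log2, each gene's mean over 12 arrays at 0); points are arrays, the line joins means, and shading marks slide 2. In every panel except sterol and fatty acid synthesis the CT16 points lie apart from the CT12 points. The widest gap between 2 arrays of a time is that of the cell cycle list at CT0.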

How the data were processed

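Whole-bladder RNA was measured on 12 Agilent 1-colour (Cy3) arrays. The deposited spot intensity came from the software Agilent Feature Extraction 10.5.1.1, per the file headers, detrended within arrays and not normalised between them. The authors' deposited table holds log2 values of 27883 probes; the submitters' processing notes name R 2.8.1, its normalisation is not given in the sources used here, and it served as an alternative (r with the scanner values 0.979 to 0.982).

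Log2 processed signals of 43379 spots were averaged over 41174 probes, outlier spots dropped, minus each array's 75th percentile; 271 probes that lacked a value on any array were dropped. Genes took their probe of highest mean level. Those well above background on at least 4 of 12 arrays, 18389, were tested; 3759 have placeholder names. Probes were named by RefSeq accession (22919), symbol (6552), synonym (3054) or as in the files (8378). Probe positions are on mm7, per the files.

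limma 3.58.1 in R 4.3.3 fitted 1 mean a time (6 residual degrees of freedom); p-values of CT16 minus CT12 were two-sided and adjusted by Benjamini-Hochberg over all genes, threshold 0.05. The fit was tested on simulated data. Members and 32 gene lists were chosen with earlier results of these data known. Named genes were all measured clock genes, up to 10 of largest difference in each direction (unadjusted p under 0.01, no overlap, well above background on all 4 arrays) and up to 3 a list by smallest p; other list members named in the text, such as defining markers, Gja1, Rora, Rbm3 and the uroplakins, were chosen after their values were seen. Tables were made with Python 3.11.15 and pandas 2.3.3, figures with matplotlib 3.10.9. Alternatives covered background correction, scaling, the authors' table, filters, probes, slide, the variance prior, array weights, the replicate number and leaving out each array. Several dim probes named in the report had smaller differences with normexp or in the authors' table. No spot was saturated, and the number of arrays limits the precision. Some items are not reported here.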

Additional observations from a re-analysis of the deposited data

How the results depend on the processing

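The count of 0 genes past the threshold for CT16 minus CT12 became 10 with normexp background correction, 4 with median scaling, 4 with the authors' table, 12 with a filter on the CT16 or CT12 arrays, 7 with an intensity trend, 24 with array weights and 17 with the replicate block; it stayed 0 with quantile normalisation, no filter, the mean of all probes and the 4 arrays alone. A 24 h wave gave 1 gene within slides and, in settings chosen after seeing the data, 28 with no slide term and 14 with slide as a random block. Leaving out 1 array gave 0 to 5 (5 without CT16 replicate 1, 2 without CT12 replicate 1). Nr1d1 passed in 10 of 14 other settings, Per1 and Nfil3 in 7 and Ciart in 5; in the 12 fits that left out an array none of these 4 passed. The cause was not tested.

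Genes higher at an unadjusted p under 0.05 numbered 831 in the wave within slides, 747 with slide as a random block and 861 to 2068 with 1 array left out (861 without CT16 replicate 2, 1303 without CT12 replicate 2). Those lower numbered 853 with median scaling, 661 and 827 in these waves, and 822 to 1672 with 1 array left out (822 without CT16 replicate 2). The change of slope had 1 gene with normexp, the authors' table, the intensity trend and the replicate block, and 0 to 2 with 1 array left out. Slide as a random block beside 6 time means could not be fitted, since each time lies on 1 slide. Same-numbered arrays of CT16 and CT12 deviated together at r = 0.272, but pairs of times ranged from -0.20 to 0.44, so the replicate numbers were not taken to pair arrays.

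Of 104 named genes with an unadjusted p under 0.05, 102 kept their sign in the 23 settings without a wave (not Myo1e and Cox5a); 62 had the other sign in the wave within slides. Of 832 list medians in other settings, 115 moved by more than the spread.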
